A study of Rattus norvegicus with 10 samples.

Results

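The milk protein genes Csn1s1, Csn2 and Csn3, which code for caseins, and the milk mucin gene Glycam1 were followed in mammary tissue of 50-day-old female rats of the Sprague-Dawley stock. The members were all probe sets (groups of short oligonucleotides that measure 1 transcript) that the platform annotation gives 1 of these 4 symbols. There were 4 such probe sets, 1 for each gene, of 15866 on the array: 1388183_at for Csn1s1, 1368913_at for Csn2, 1369591_at for Csn3 and 1368337_at for Glycam1. The rats had received CAS, SPI or GEN, 1 of 3 purified diets. The title asks what SPI or genistein does to expression in mammary epithelium; genistein (GEN) is an isoflavone of soy with affinity for estrogen receptors. CAS (casein) and SPI (soy protein isolate) are read here from knowledge of the study, not from its labels, and CAS served as the reference.

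There were 10 Affymetrix RAE230 arrays: CAS 1, CAS 2 and CAS 3, SPI 2, SPI 3, SPI 4 and SPI 5, and GEN 1, GEN 3 and GEN 5, numbered as in the sample titles. For each array the labels name 8 ug of RNA, from a pool of 2 animals of 1 diet, except that the label of CAS 3 names a pool of 7 animals. The labels also say that 3 labelled targets were made from each pool, without telling which arrays came from the same pool, so the p-values measure the spread between these arrays, part of which may be technical. The source is given as epithelial cells, the labelling protocol names the fourth mammary gland, and the design text also names colon. The luminal keratins Krt8 (1409 to 5260 over the 10 arrays) and Krt18 (1508 to 3950) gave bright signals, as did the adipocyte fatty acid binding protein Fabp4 (10206 to 16003). Of 18 adipocyte genes, 15 had a probe set and 12 were bright enough to be tested. Those too dim were Lep (6.6 to 18.8), Plin1 (24.7 to 110.2) and Cebpa (11.4 to 58.9). The samples are therefore described as mammary tissue, and their share of fat was not tested. Of 16 genes of gut, pancreas and salivary gland, 14 had a probe set and 3 gut genes were bright enough to be tested: Cdx2 (314.7 to 475.7), Tff3 (332.8 to 463.0) and Lgals4 (110.9 to 318.6). The other 11 were dimmer, among them Muc2 (83.9 to 207.0), Slc26a3 (3.7 to 45.1) and Fabp2 (6.7 to 67.5). In such bulk RNA, fewer cells of a type and less RNA per cell cannot be told apart.

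Caseins are the main proteins of milk. Csn1s1 (alpha-S1-casein) and Csn2 (beta-casein) are phosphoproteins that bind calcium phosphate, and Csn3 (kappa-casein) is glycosylated and coats the surface of the casein micelle. Glycam1 is a mucin-like glycoprotein that is secreted into milk, and it is also made by the high endothelial venules of lymph nodes, where it carries ligands of L-selectin. In mammary epithelium, transcription of casein genes depends on prolactin, which acts through its receptor, the kinase Jak2 and the transcription factor Stat5, together with glucocorticoid and contact with the extracellular matrix.

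The promoter sequences are shown because the 4 genes varied together over the arrays, as described further on, and because Stat5 binds the palindrome TTCNNNGAA. RefSeq promoter entries of the rat build GRCr8 matched 4 of the 4 genes. Each line gives the 250 bases before the annotated start, 5′ to 3′ on the strand of the gene, with matches to TTCNNNGAA in capitals. The windows lie at chr14:20638850-20639099 on the minus strand for Csn1s1, chr14:20601574-20601823 on the plus strand for Csn2, chr14:20439831-20440080 on the minus strand for Csn3 and chr7:136561300-136561549 on the minus strand for Glycam1.
Csn1s1: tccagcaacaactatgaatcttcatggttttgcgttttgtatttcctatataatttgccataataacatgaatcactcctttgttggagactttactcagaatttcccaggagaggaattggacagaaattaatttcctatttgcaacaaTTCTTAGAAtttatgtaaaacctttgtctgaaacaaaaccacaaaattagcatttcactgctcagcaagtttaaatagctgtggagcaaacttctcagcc
Csn2: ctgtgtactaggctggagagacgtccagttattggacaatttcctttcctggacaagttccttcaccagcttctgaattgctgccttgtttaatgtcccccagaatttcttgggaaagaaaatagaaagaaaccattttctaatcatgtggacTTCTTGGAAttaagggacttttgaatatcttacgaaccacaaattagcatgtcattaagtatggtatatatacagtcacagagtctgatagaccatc
Csn3: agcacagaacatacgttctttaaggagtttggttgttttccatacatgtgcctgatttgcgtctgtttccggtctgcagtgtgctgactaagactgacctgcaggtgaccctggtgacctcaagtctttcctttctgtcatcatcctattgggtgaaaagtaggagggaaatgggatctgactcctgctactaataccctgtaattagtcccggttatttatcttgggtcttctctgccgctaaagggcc
Glycam1: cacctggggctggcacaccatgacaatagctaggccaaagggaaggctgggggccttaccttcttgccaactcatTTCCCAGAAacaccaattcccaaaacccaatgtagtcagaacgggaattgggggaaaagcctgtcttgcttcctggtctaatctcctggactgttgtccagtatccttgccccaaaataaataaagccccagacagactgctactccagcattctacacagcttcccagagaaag

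The palindrome was present in 3 of the 4 windows. In Csn1s1 the match TTCTTAGAA lay 100 to 92 bases before the start, in Csn2 the match TTCTTGGAA lay 97 to 89 bases before it, and in Glycam1 the match TTCCCAGAA lay 175 to 167 bases before it. Csn3 had 0 matches in these 250 bases. Of 33465 rat promoter windows of the same length, 7.67% held the palindrome. The glucocorticoid receptor half-site TGTTCT, searched on both strands, was found in Csn3 alone among the 4, on the opposite strand 245 to 240 bases before the start, and in 17.5% of all windows. The C/EBP motif TTGCNNAA, searched on both strands, had 0 matches in the 4 windows and was in 9.22% of all windows. None of these motifs overlapped another in the 4 windows. A match describes the letters and does not show that a factor binds there.

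**Figure D1:**
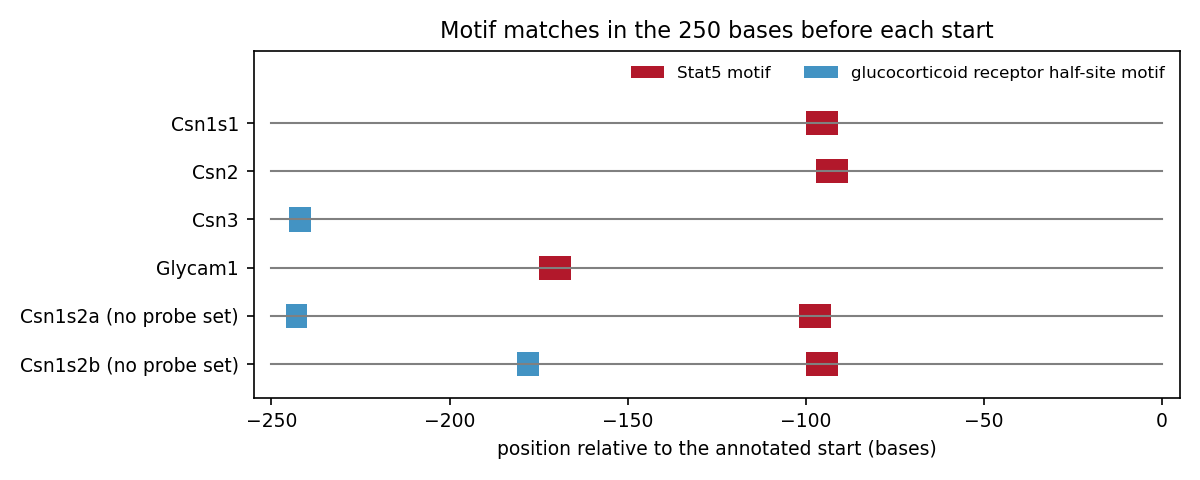
Motif matches (boxes, to scale) by position in bases before the annotated start, for the 4 genes and for Csn1s2a and Csn1s2b, which have no probe set named for them. The Stat5 palindrome lies 100 to 92 bases before the start of Csn1s1, 97 to 89 bases before that of Csn2 and 175 to 167 bases before that of Glycam1, and Csn3 shows the glucocorticoid receptor half-site alone.

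Csn3, Csn2 and Csn1s1 belong to 1 cluster on chromosome 14, whereas Glycam1 lies on chromosome 7. In RefSeq order, 6 genes stand between Csn3 and Csn1s1 beside Csn2: Fdcsp, Odam, Prr27, Csn1s2b, Csn1s2a and Stath. The annotation used here names 0 probe sets for them, so the remaining calcium-sensitive caseins Csn1s2a and Csn1s2b were not analysed here. Their promoter windows also held the palindrome, as TTCTTAGAA 102 to 94 bases before the start of Csn1s2a and as TTCTGAGAA 100 to 92 bases before that of Csn1s2b. Of the 10 genes that flank the cluster, 5 on each side, 7 had a probe set, and the highest signal of any of them on any array was 126.5, that of the estrogen sulfotransferase gene Sult1e1. Those 7 flanking genes were therefore dimmer on every array than 162, the lowest geometric mean signal among the probe sets tested for differences.

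All values that follow are MAS5 signals, a brightness per probe set on a scale set by each array's overall mean, or their log2. Csn1s1 had signals of 20137, 9120 and 15828 on CAS 1, CAS 2 and CAS 3. It had 21008, 22285, 9866 and 18909 on SPI 2, SPI 3, SPI 4 and SPI 5, and 24791, 22522 and 26451 on GEN 1, GEN 3 and GEN 5. The 3 GEN arrays were above every CAS and SPI array, and CAS 2 and SPI 4 were far below the other 8. CAS arrays averaged 15028 ± 5552 (SD, n = 3), SPI arrays 18017 ± 5610 (SD, n = 4) and GEN arrays 24588 ± 1972 (SD, n = 3). On GEN 5 this probe set was the brightest of its array, at 100% of the maximum, and on the other arrays it stood at 32.1% to 86.9% of the maximum. Whether its signal flattened at the top of the scale was not tested.

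Csn2 had signals of 14829, 2330 and 6057 on CAS 1, CAS 2 and CAS 3. It had 9819, 8137, 2245 and 6787 on SPI 2, SPI 3, SPI 4 and SPI 5, and 14257, 12614 and 18876 on GEN 1, GEN 3 and GEN 5. CAS 1 lay within the range of the GEN arrays, so those groups overlapped, whereas every SPI array lay below every GEN array. CAS arrays averaged 7739 ± 6417 (SD, n = 3), SPI arrays 6747 ± 3247 (SD, n = 4) and GEN arrays 15249 ± 3246 (SD, n = 3). CAS 1 and CAS 2, of the same diet, differed 6.36-fold.

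Csn3 had signals of 14693, 6233 and 12772 on CAS 1, CAS 2 and CAS 3. It had 17312, 13358, 4529 and 9509 on SPI 2, SPI 3, SPI 4 and SPI 5, and 17131, 19587 and 21924 on GEN 1, GEN 3 and GEN 5. The GEN arrays were above all CAS arrays, and SPI 2 was just above GEN 1. CAS arrays averaged 11232 ± 4435 (SD, n = 3), SPI arrays 11177 ± 5458 (SD, n = 4) and GEN arrays 19547 ± 2397 (SD, n = 3).

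Glycam1 had signals of 4041, 450.4 and 1021 on CAS 1, CAS 2 and CAS 3. It had 1447, 1199, 768.4 and 1858 on SPI 2, SPI 3, SPI 4 and SPI 5, and 2106, 3058 and 3862 on GEN 1, GEN 3 and GEN 5. The highest and the lowest array of all 10 were both CAS arrays, 8.97-fold apart, and every SPI array lay below every GEN array. CAS arrays averaged 1838 ± 1929 (SD, n = 3), SPI arrays 1318 ± 456 (SD, n = 4) and GEN arrays 3009 ± 879 (SD, n = 3).

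**Figure D2:**
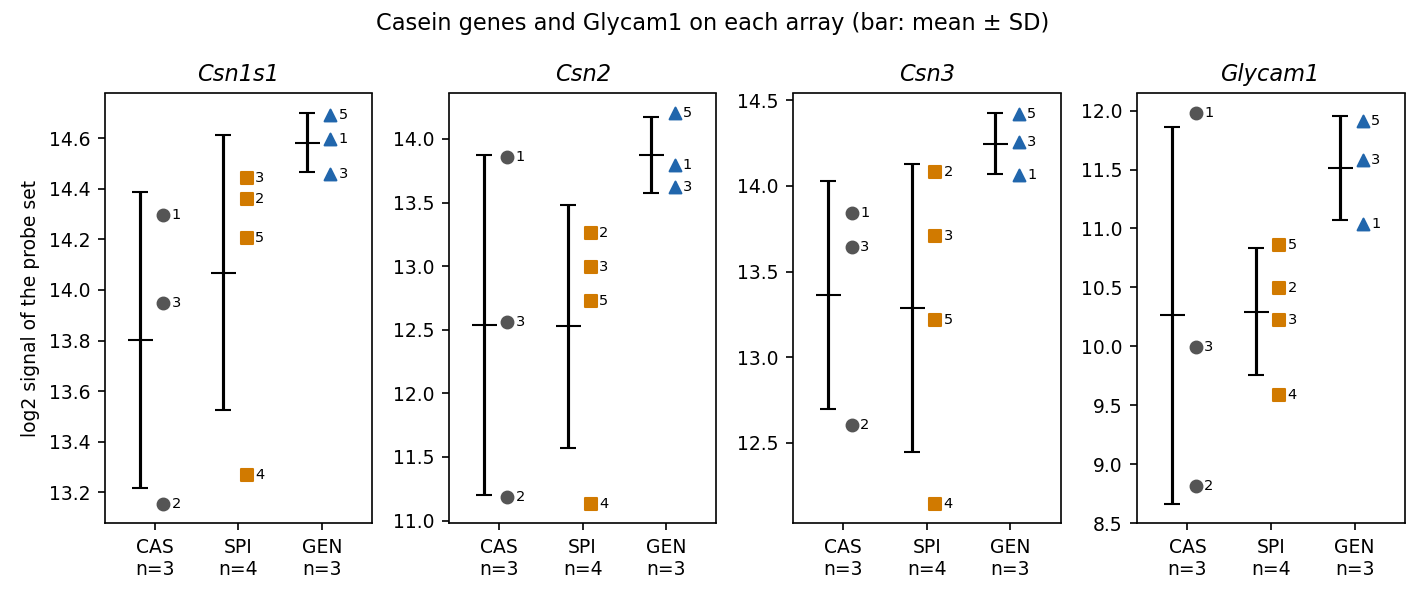
Log2 signal of each gene (vertical axis, a separate scale per gene) on each array, grouped by diet, with the replicate number beside each point and the mean ± SD as a bar. CAS 2 and SPI 4 are the lowest arrays for all 4 genes, and GEN 5 is the highest for Csn1s1, Csn2 and Csn3 and CAS 1 for Glycam1.

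The arrays kept a similar order from gene to gene. CAS 2 and SPI 4 were the 2 lowest arrays for 4 of the 4 genes, and GEN 5 was among the 3 highest for 4 of the 4. The genes differed in how far they ranged: from the lowest to the highest array Csn1s1 spanned 2.90-fold, Csn3 4.84-fold, Csn2 8.41-fold and Glycam1 8.97-fold. The spread within diets was large for this data set. The within-diet SD on the log2 scale was 0.96 for Csn2, 0.95 for Glycam1, 0.66 for Csn3 and 0.48 for Csn1s1, against a median of 0.25 over all 9520 probe sets tested. The share of tested probe sets with a smaller SD was 99.5% for Csn2 and for Glycam1, 97.8% for Csn3 and 93.0% for Csn1s1. The whey genes also varied: the share was 95.4% for Wap, the whey acidic protein, which is above that of Csn1s1, and 80.7% for Lalba, the alpha-lactalbumin of whey.

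On the genistein diet the 4 genes had higher mean log2 signals than on CAS, by 0.78 to 1.34, but none passed the test. Differences were tested with limma, a linear model with a moderated error, over all probe sets that were not dim, and a Benjamini-Hochberg adjusted p under 0.05 counted as a difference. The log2 difference was 0.78 ± 0.30 (SE) for Csn1s1 (95% interval 0.13 to 1.43), 1.34 ± 0.59 for Csn2 (0.07 to 2.61), 0.88 ± 0.41 for Csn3 (0.00 to 1.77) and 1.25 ± 0.59 for Glycam1 (-0.02 to 2.52). The limma adjusted p was 0.825 for each of the 4. These are 1.72-fold for Csn1s1, 2.53-fold for Csn2, 1.85-fold for Csn3 and 2.37-fold for Glycam1. Their median difference was 1.07, against -0.01 over all probe sets tested.

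The genistein and CAS arrays did not overlap for 2 of the 4 genes, Csn1s1 and Csn3, in the direction of GEN, as for 5.7% of all probe sets tested. Before adjustment, 3 of the 4 (Csn1s1, Csn2 and Csn3) had a limma p under 0.05 with GEN higher, as did 2.7% of all probe sets. All 4 differences were above 0, as were 47.9% over all probe sets. Over all 9520 probe sets limma called 0 (0%) at an adjusted p under 0.05, with 561 (5.89%) at an unadjusted p under 0.05, and with no intensity trend in the error it also called 0. The 4 genes vary together, so these counts are not 4 separate observations. An exact permutation test of the 3 against 3 arrays gave a two-sided p of 0.10 for Csn1s1 and Csn3, the smallest p this design allows, 0.30 for Csn2 and 0.40 for Glycam1.

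The CAS arrays at the ends of the range decided the size. Without CAS 2, the GEN differences were 0.46 for Csn1s1, 0.67 for Csn2, 0.51 for Csn3 and 0.52 for Glycam1. Without CAS 1 they were 1.03, 2.00, 1.12 and 2.11 in the same order, with limma adjusted p of 0.613, 0.613, 0.621 and 0.275. CAS 1 also had the highest mean log2 signal of skeletal muscle genes, 10.42 against 8.50 to 8.93 on the other 9 arrays, whose part in the result was not tested.

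The SPI and CAS diets had similar means for the 4 genes, with wide intervals. The log2 difference of SPI from CAS was 0.27 ± 0.28 (SE) for Csn1s1 (95% interval -0.34 to 0.88), -0.01 ± 0.55 for Csn2 (-1.20 to 1.18), -0.08 ± 0.38 for Csn3 (-0.90 to 0.75) and 0.03 ± 0.55 for Glycam1 (-1.16 to 1.21). The limma adjusted p ran from 0.987 to 0.999 over the 4. The groups overlapped for 4 of the 4 genes, against 4.6% of all probe sets whose SPI and CAS arrays did not. At an unadjusted p under 0.05 limma had 0 of the 4 and 459 of all probe sets (4.82%), and after adjustment it called 0 of all (0%). The difference was above 0 for 2 of the 4 genes and for 47.7% of all probe sets. The intervals still include 2.27-fold higher and 2.29-fold lower signals for Csn2, so these arrays do not show that the diets gave equal levels.

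The direction of SPI against CAS turned when single arrays were left out, for Csn1s1 only without CAS 2 (-0.05). Without CAS 2, SPI lay below CAS by -0.68 for Csn2 and -0.70 for Glycam1, and without CAS 1 it lay above CAS by 0.65 and 0.89. Without SPI 4 the values were 0.46 for Csn2 and 0.30 for Csn3, and without CAS 3, the array whose label names 7 animals, they were 0.01 and 0.06. On SPI 4 the probe set at the 3′ end of beta-actin was 7.77 times as bright as that at the 5′ end, against 2.83 to 5.22 times on the other arrays. This ratio is higher in more degraded RNA. With its log2 as a covariate, SPI against CAS was 0.30 for Csn1s1, 0.04 for Csn2, -0.04 for Csn3 and 0.08 for Glycam1. GEN against CAS was then 0.69, 1.18, 0.76 and 1.09 in the same order, and SPI against GEN -0.40, -1.14, -0.79 and -1.02. None of these values passed (limma adjusted p from 0.896 to 0.995). What caused the shifts was not tested.

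**Figure D3:**
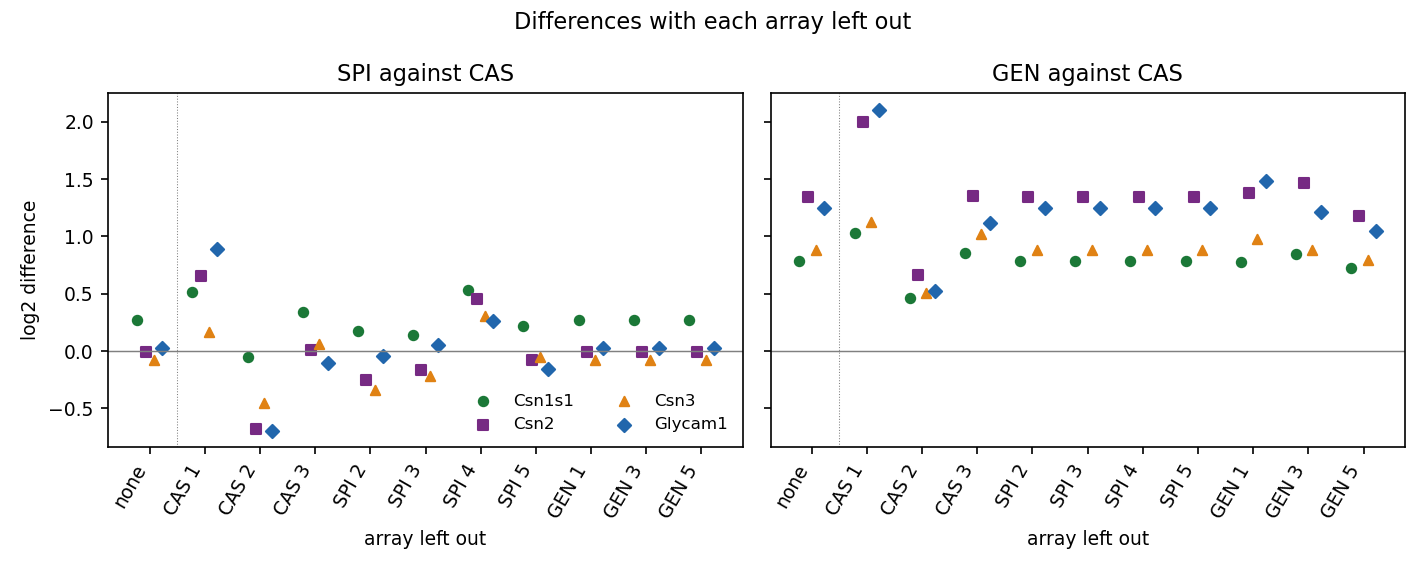
Log2 difference of each gene (vertical axis) for SPI against CAS (left) and GEN against CAS (right) with all arrays ("none") and with each array left out in turn. The GEN differences stay above 0, from 0.46 to 2.11, while the SPI differences of each gene lie on both sides of 0, from -0.70 to 0.89.

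Between the soy-component diets, SPI means lay below GEN means for all 4 genes, and none passed. The log2 difference of SPI from GEN was -0.51 ± 0.28 (SE) for Csn1s1 (95% interval -1.12 to 0.09), -1.35 ± 0.55 for Csn2 (-2.54 to -0.16), -0.96 ± 0.38 for Csn3 (-1.79 to -0.14) and -1.22 ± 0.55 for Glycam1 (-2.40 to -0.03). The limma adjusted p was 0.653 for Csn1s1, 0.583 for Csn2, 0.582 for Csn3 and 0.614 for Glycam1. The groups did not overlap for 3 of the 4 genes (Csn1s1, Csn2 and Glycam1), with SPI lower, as for 4.37% of all probe sets. Before adjustment, 3 of the 4 (Csn2, Csn3 and Glycam1) had a limma p under 0.05 with SPI lower, as did 4.25% of all probe sets. Limma called 0 of all probe sets (0%), with 757 (7.95%) at an unadjusted p under 0.05. The difference was above 0 for 0 of the 4 genes and for 49.2% of all probe sets. Leaving out 1 array gave -0.64 to -0.25 for Csn1s1, -1.59 to -0.88 for Csn2, -1.23 to -0.58 for Csn3 and -1.45 to -0.98 for Glycam1. This comparison and that of GEN with CAS share the GEN arrays. The exact permutation test of 4 against 3 arrays gave a two-sided p of 0.0571 for Csn2 and for Glycam1, 0.114 for Csn1s1 and 0.143 for Csn3, where the smallest p possible was 0.0286.

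A single test of any difference among the 3 diets gave limma F-test p-values of 0.0602 for Csn1s1, 0.0550 for Csn2, 0.0558 for Csn3 and 0.0803 for Glycam1 before adjustment. The exact permutation version, over 4200 assignments of the arrays to diets, gave 0.176, 0.197, 0.190 and 0.248. The whey protein genes Wap (whey acidic protein) and Lalba had their lowest mean log2 signal on SPI and their highest on GEN. Csn2 and Csn3 had the same order, but with SPI and CAS nearly level (-0.01 ± 0.55 and -0.08 ± 0.38, SE). Csn1s1 and Glycam1 had their lowest mean on CAS. Wap differed by -0.62 ± 0.33 (SE) between SPI and CAS, 1.44 ± 0.35 between GEN and CAS and -2.06 ± 0.33 between SPI and GEN (limma adjusted p = 0.987, 0.766 and 0.132). Lalba differed by -0.76 ± 0.22, 0.42 ± 0.23 and -1.18 ± 0.22 in the same order (limma adjusted p = 0.756, 0.825 and 0.243). The difference between whey and casein genes was not tested.

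The 4 genes went together over the 10 arrays. Pearson r of the log2 signals was 0.957 for Csn1s1 with Csn2, 0.947 for Csn2 with Csn3 and 0.926 for Csn1s1 with Csn3. Glycam1, on another chromosome, had r of 0.914 with Csn2, 0.83 with Csn1s1 and 0.777 with Csn3. The permutation p, adjusted over the 6 pairs, was 0.00046 for Csn1s1 with Csn2, 0.00046 for Csn2 with Csn3, 0.00111 for Csn1s1 with Csn3, 0.00046 for Glycam1 with Csn2, 0.00218 with Csn1s1 and 0.00694 with Csn3. Spearman's rho ran from 0.733 (Csn1s1 with Glycam1, adjusted permutation p = 0.0204) to 0.927 (Csn2 with Glycam1, adjusted permutation p = 0.00234).

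The relation was also present within diets. After the mean of each diet was subtracted, r was 0.972 for Csn1s1 with Csn2 and 0.869 for Glycam1 with Csn2 (exact permutation within diets, adjusted p = 0.00694 and 0.0347). It was 0.770 for Glycam1 with Csn1s1 and 0.658 with Csn3 (adjusted p = 0.0625 and 0.0660 in the same exact test), which did not pass. Without CAS 2 and SPI 4, the arrays farthest from the median, r was 0.809 for Csn1s1 with Csn2, 0.806 for Csn2 with Csn3 and 0.855 for Glycam1 with Csn2. For Csn1s1 with Csn3 it was then 0.712, for Csn1s1 with Glycam1 0.550 and for Csn3 with Glycam1 0.515, and these relations no longer passed, so they rest in part on those 2 arrays.

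Genes of luminal epithelium, the cell layer that makes milk, had the same arrays at both ends of their range. Of 22 luminal markers, 19 had a probe set and 15 were bright enough to be tested. The dimmer ones were Krt7 (57.5 to 259.5), Kit (19.5 to 166.1), Ehf (13.6 to 74.2) and Foxa1 (15.2 to 94.4). The mean log2 signal of the 15 tested markers was 10.41, 9.77 and 10.02 on CAS 1, CAS 2 and CAS 3. It was 10.21, 9.98, 9.22 and 9.91 on SPI 2, SPI 3, SPI 4 and SPI 5, and 10.32, 10.29 and 10.77 on GEN 1, GEN 3 and GEN 5. SPI 4 and CAS 2 were the lowest arrays and GEN 5 the highest, as for the caseins, but the order in between differed: CAS 3 was above SPI 3 and SPI 5 in luminal mean and below them in the mean of the 4 milk genes. The summed signal of the 15 genes was 16193 to 27577 over CAS arrays, 11255 to 21645 over SPI arrays and 24590 to 33703 over GEN arrays.

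The luminal mean had a Pearson r over the 10 arrays of 0.922 with Csn2, 0.925 with Csn3, 0.827 with Csn1s1 and 0.801 with Glycam1. The permutation p, adjusted over 16 relations, was 0.00032, 0.0004, 0.00564 and 0.0116 in that order, and Spearman's rho was 0.964, 0.879, 0.794 and 0.879 (adjusted permutation p = 0.00112, 0.0088, 0.0232 and 0.0088). Within diets r was 0.922, 0.910, 0.896 and 0.736 (exact permutation, adjusted p = 0.0185, 0.0185, 0.0309 and 0.0463). Leaving out SPI 4 and GEN 5, which lay farthest out in luminal mean, gave r of 0.918, 0.853, 0.714 and 0.854, and the relation of Csn1s1 no longer passed. Basal epithelial markers, added after the values were seen, had r of 0.837 with Csn1s1, 0.835 with Csn2, 0.784 with Csn3 and 0.655 with Glycam1 (adjusted permutation p = 0.00564, 0.0079, 0.0154 and 0.0771). Their Spearman's rho was 0.830, 0.842, 0.685 and 0.673 in that order (adjusted permutation p = 0.0137, 0.0137, 0.0763 and 0.0763). Within diets the basal r was 0.772, 0.763, 0.691 and 0.501 (exact permutation, adjusted p = 0.0463, 0.0463, 0.135 and 0.192). Without SPI 4 and GEN 5 the basal r was 0.707, 0.658, 0.488 and 0.464, which did not pass.

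With the luminal mean as a covariate in the model, the diet differences were smaller for GEN. GEN against CAS was then 0.32 ± 0.18 (SE) for Csn1s1, 0.38 ± 0.28 for Csn2, 0.23 ± 0.22 for Csn3 and 0.49 ± 0.47 for Glycam1. SPI against GEN turned to 0.23 ± 0.20, 0.20 ± 0.31, 0.09 ± 0.24 and 0.01 ± 0.52 in the same order. SPI against CAS was 0.55 ± 0.16 for Csn1s1, 0.58 ± 0.25 for Csn2, 0.32 ± 0.19 for Csn3 and 0.49 ± 0.41 for Glycam1, and none of these 12 values passed (limma adjusted p from 0.869 to 0.999). Since a lower share of epithelium and lower expression in each epithelial cell give the same bulk signal, the covariate does not separate them.

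**Figure D4:**
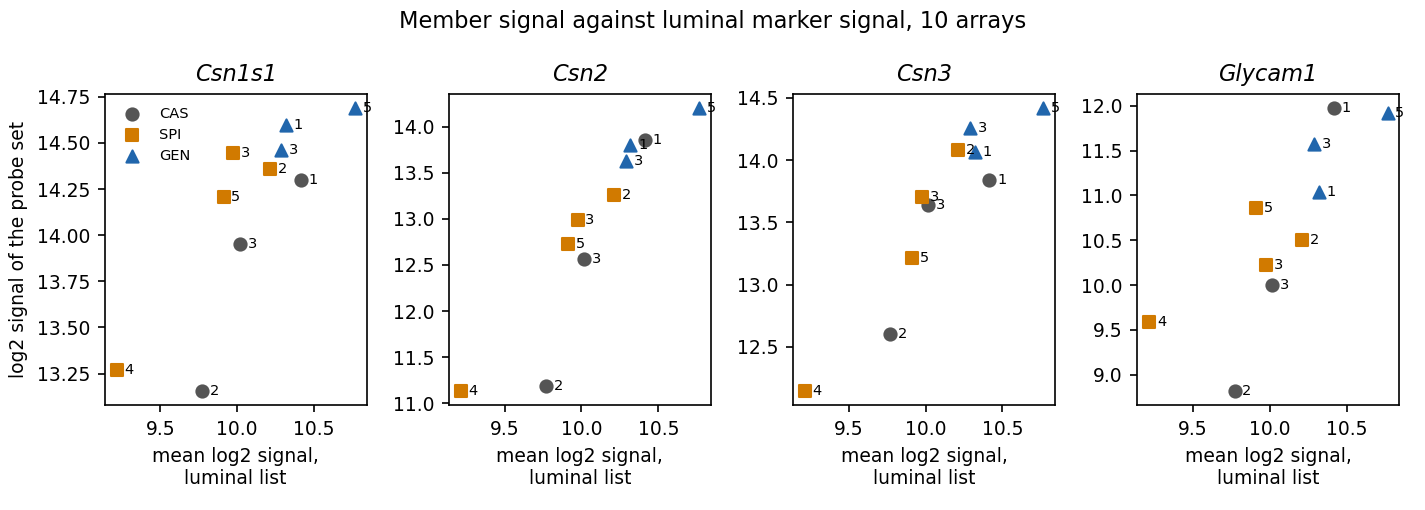
Log2 signal of each gene (vertical axis) against the mean log2 signal of 15 luminal epithelial markers (horizontal axis) on the 10 arrays, by diet and replicate number. The arrays run from SPI 4, at a luminal mean of 9.22, up to GEN 5 at 10.77, and CAS 2 lies below the other arrays of similar luminal mean for all 4 genes.

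**Figure D5:**
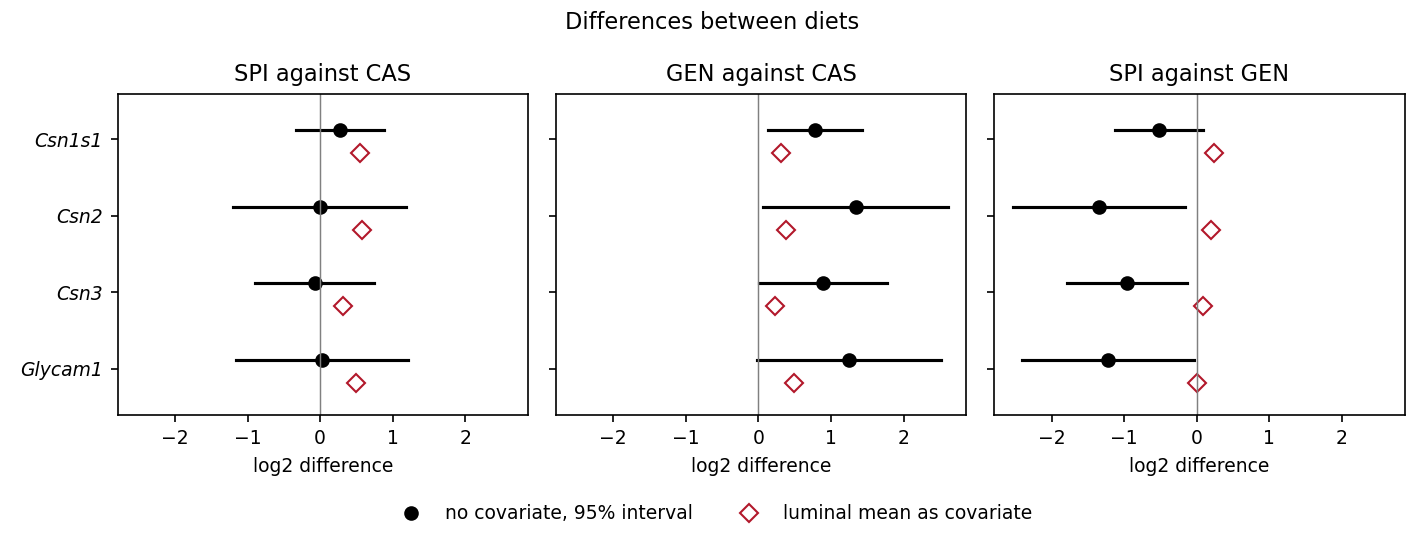
Log2 difference of each gene (horizontal axis) for the 3 comparisons, as fitted (filled circles, lines for 95% intervals) and with the luminal mean as a covariate (open diamonds, no interval drawn). With the covariate the GEN against CAS values lie at 0.23 to 0.49, and the SPI against GEN values at 0.01 to 0.23.

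Lymph node genes were examined because high endothelial venules also make Glycam1. Of 25 such markers, 14 had a probe set and 4 were bright enough to be tested: Lck, Cxcl13, Madcam1 and Coro1a. The B cell gene Cd79b (14.6 to 100.2) and the T cell gene Cd3e (7.5 to 78.6) were dim on all 10 arrays. Over the 4 tested genes the summed signal was 1175 to 1866 over CAS arrays, 1070 to 1486 over SPI arrays and 1190 to 1340 over GEN arrays. Their mean had a Pearson r of 0.277 with Glycam1 (adjusted permutation p = 0.542) and a Spearman's rho of 0.188 (adjusted permutation p = 0.648), and without CAS 1 and CAS 3 r was 0.143. Within diets it was 0.587 (exact permutation, adjusted p = 0.319), which did not pass. With Csn1s1, Csn2 and Csn3 r was -0.06, 0.06 and -0.08 (adjusted permutation p = 0.873 for each). The beta-actin ratio had r of -0.42 with Csn1s1, -0.42 with Csn2, -0.46 with Csn3 and -0.41 with Glycam1 (adjusted permutation p = 0.316 for each), and without SPI 4 and GEN 5 these were 0.23, 0.31, 0.38 and 0.02.

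Among 7115 other genes, those most like the mean of the 4 over the 10 arrays were chosen by the highest Pearson r, given as a description. They were Dhrs11 (0.949), the luminal keratin Krt8 (0.948), Btg3 (0.936), Akr7a2 (0.930), the glutaryl-CoA dehydrogenase Gcdh (0.929), the ornithine aminotransferase Oat (0.928), Mia (0.927), the gap junction gene Gjb2 (0.925), the keratin Krt19 (0.922) and the epithelial small GTPase Rab25 (0.916). The genes with the lowest r were Cdc42ep4 (-0.91), Ubxn1 (-0.90), the tRNA synthetase Yars1 (-0.89), the endothelial receptor Eng (-0.89) and Plcb4 (-0.89). Krt8 was the nearest gene to Csn2 alone (r = 0.954), Krt19 the nearest to Csn3 (0.969), Dhrs11 the nearest to Csn1s1 (0.954) and the nucleoside transporter Slc29a1 the nearest to Glycam1 (0.933). The basal keratins Krt14 and Krt5 had r of 0.879 and 0.865 with the mean of the 4, ranks 21 and 38. The luminal genes Krt18 and Epcam had 0.876 and 0.856, ranks 25 and 46. The whey genes were less alike: r with the mean of the 4 was 0.747 for Wap and 0.713 for Lalba, ranks 192 and 259 of 7115. These arrays share 1 scaling method and vary in luminal signal, so r over them describes these samples alone.

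The genes of prolactin signalling and other regulators of casein transcription gave no calls. Of 28 listed genes 27 had a probe set and 16 were tested, and limma called 0 in any of the 3 comparisons. For Prlr, the prolactin receptor gene, CAS arrays averaged 2816 ± 571 (SD, n = 3), SPI arrays 1859 ± 1046 (SD, n = 4) and GEN arrays 2051 ± 274 (SD, n = 3). Its log2 difference was -0.74 ± 0.32 (SE) for SPI and -0.45 ± 0.35 for GEN against CAS, and over the arrays it had r of 0.157 with the mean of the 4 milk genes. Stat5a differed by -0.11 ± 0.17 for SPI and 0.00 ± 0.18 for GEN against CAS, with r of 0.484. Jak2, the kinase bound to the receptor, differed by 0.47 ± 0.21 between GEN and CAS and -0.55 ± 0.20 between SPI and GEN. Among the other genes with the smallest p, Cebpd stood at 0.43, Gata3 at -0.59 and Cav1 at 0.21 (SPI minus CAS), Ptpn11 at -0.29, Cav1 at 0.19 and Nfib at 0.23 (GEN minus CAS), and Tgfb1 at 0.40, Nfic at 0.75 and Cebpd at 0.33 (SPI minus GEN). The median difference of the 16 genes was 0.09 (SPI minus CAS), -0.07 (GEN minus CAS) and 0.08 (SPI minus GEN), against -0.01, -0.01 and 0.00 over all probe sets. Stat5b (50.6 to 179.4) and the negative regulators Socs1 (5.7 to 89.0) and Cish (31.7 to 196.0) were too dim to be tested.

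Other milk and secretion genes had 17 of 34 members tested, with 0 called in any comparison. Over all probe sets tested the difference was above 0 for 47.7% (SPI minus CAS), 47.9% (GEN minus CAS) and 49.2% (SPI minus GEN). Genes of a list are read from the same arrays, so their counts are not separate observations. For GEN against CAS 13 were higher and 4 lower, with a median of 0.37. Those with the smallest p were the fatty acid binding protein Fabp3 (2.04 ± 0.41, SE), Wap, the lipid droplet protein Plin2 (0.70 ± 0.19) and the mucin Muc1 (0.78 ± 0.26). For SPI against CAS 7 were higher and 10 lower, with a median of -0.11, and those with the smallest p were Fabp3 (1.54), Lalba, the milk fat globule enzyme Xdh (-0.60) and Mfge8 (0.34). For SPI against GEN 3 were higher and 14 lower, with a median of -0.50, led by Wap (-2.06), Lalba (-1.18), the zinc transporter Slc30a4 (-0.54) and Plin2 (-0.54).

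Genes of the secretory pathway that folds, phosphorylates and packs caseins had 26 of 30 members tested and 0 called. The median difference was 0.00 between SPI and CAS, 0.15 between GEN and CAS (18 higher, 8 lower) and -0.13 between SPI and GEN (7 higher, 19 lower). Over all probe sets 47.9% were higher between GEN and CAS and 49.2% between SPI and GEN. Fam20c, the Golgi kinase that phosphorylates caseins, differed by 0.01 ± 0.23 (SE) for SPI and 0.20 ± 0.25 for GEN against CAS; it was named for its role, after its values were seen. Sec22b, which takes part in transport from the endoplasmic reticulum to the Golgi, averaged 376 ± 17.4 (SD, n = 3) over the GEN arrays and 642 ± 144 (SD, n = 3) over the CAS arrays, a difference of -0.75 ± 0.19 that did not pass (limma adjusted p = 0.766). The other genes with the smallest p for GEN against CAS were the chaperones Hsp90b1 (0.27) and Hspa5 (0.31) and Spcs2 (0.28).

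Luminal markers had 0 of 15 called. Their counts are again not separate observations, and the shares above 0 over all probe sets were 47.7% (SPI minus CAS), 47.9% (GEN minus CAS) and 49.2% (SPI minus GEN). For SPI against CAS 3 were higher and 12 lower with a median of -0.21, led by Cldn4 (-0.85), Cdh1 (-0.74), Epcam (-0.55) and Krt18 (-0.34). For GEN against CAS 14 were higher and 1 lower with a median of 0.38, led by Cd9 (0.73), Cldn3 (0.67), Spint2 (0.51) and Krt8 (0.60). For SPI against GEN 0 were higher and 15 lower with a median of -0.64, led by Cldn4 (-1.15), Cd9 (-0.79), Epcam (-0.92) and Cdh1 (-1.13). Basal markers had 0 of 11 called, with medians of 0.08 (SPI minus CAS), 0.17 (GEN minus CAS) and -0.38 (SPI minus GEN). The remaining lists also had 0 calls in each comparison: adipocyte (12 tested), skeletal muscle (7), lymph node (4), macrophage (13) and other secretory tissues (3). Of these, the macrophage list had medians of -0.65 for SPI and -0.47 for GEN against CAS and the skeletal muscle list -0.42 and -0.51. The adipocyte medians were 0.20 and 0.07, the lymph node medians -0.21 and -0.13, and those of other secretory tissues -0.03 and 0.20.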

How the data were processed

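The authors deposited 1 table with a linear MAS5 intensity for each probe set. MAS5 is named in the submitters' processing notes, without a version. The intensity of each array had a trimmed mean (2% left out at each end) near 500.1, so differences in total RNA between arrays are not visible. Control probe sets (57 of 15923) were left out, values under 1 were set to 1, log2 was taken and the lowest 40% by mean log2 signal were left out, which left 9520. The 4 members were among them. Symbols came from the platform annotation. Limma 3.58.1 in R 4.3.3 (lmFit, eBayes with intensity trend) was fitted to all 10 arrays with a mean per diet, and p-values were adjusted by Benjamini-Hochberg over 9520 probe sets. Errors of differences are standard errors of this fit. A gene of a list was read from its brightest tested probe set. Correlations used 100000 permutations, all 864 permutations within diets, or all orders of 8 arrays. Scripts were tested on simulated data. Members, lists and tests were chosen with earlier results of these data known. Named were all members and, in each comparison, the 4 genes with the smallest p of the main lists (the others are given by counts). For the secretory pathway list these 4 were named for GEN against CAS alone. Also named were the 10 genes most and the 5 least like the mean of the members, and the gene most like each member. Single genes given for their role or position were added. Precision is limited by the 10 arrays: over all probe sets the 95% interval had a median half-width on the log2 scale of 0.41 where SPI was compared and 0.44 between GEN and CAS. No column lay outside the series. Alternatives in normalization, filter, floor, pseudocount, error model, replicate block, covariates and arrays are given in the closing section.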

Additional observations from a re-analysis of the deposited data

How the results depend on the processing

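Over 22 alternatives, GEN stayed above CAS for the 4 genes (0 of 88 values reversed) and none of the 4 genes passed in any comparison. The filters, the floor, the error trend and the SPI arrays do not enter the GEN and CAS means of these genes. Alternatives in them could not change the size of this difference, so the 88 values are not 88 separate checks. Leaving out 1 array gave GEN against CAS 0.46 to 1.03 for Csn1s1, 0.67 to 2.00 for Csn2, 0.51 to 1.12 for Csn3 and 0.52 to 2.11 for Glycam1. For SPI against CAS it gave -0.0545 to 0.54, -0.68 to 0.65, -0.46 to 0.30 and -0.70 to 0.89 in that order. SPI against CAS also turned for Csn2 with arrays centred on their median (0.0646), with the actin ratio as a covariate (0.0421), with the luminal mean as a covariate (0.58, and 0.32 for Csn3), and without SPI 4 and GEN 5 (0.46, and 0.30 for Csn3), an alternative chosen after seeing the data. SPI against GEN turned with the luminal covariate (0.23 for Csn1s1, 0.20 for Csn2, 0.0896 for Csn3, 0.0088 for Glycam1). With the replicate block, in the order Csn1s1, Csn2, Csn3 and Glycam1, SPI against GEN was -0.02, -0.42, -0.45 and -0.44, each over 1.5 times smaller than without it. SPI against CAS was 0.64, 0.69, 0.42 and 0.37, and GEN against CAS 0.66, 1.11, 0.87 and 0.80. The numbers are shared by only some arrays, same-numbered arrays had a median correlation of deviations of -0.09 (6 pairs), and the block changed no call. The causes were not tested.

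The count of all probe sets called was 0 in each comparison. It was 2 for GEN against CAS with the lowest 60% left out, 2 for SPI against CAS with the luminal covariate, 2 for SPI against GEN with the arrays of those diets alone and 1 without SPI 4 and GEN 5. Leaving out 1 array gave 0 to 2 for SPI against CAS, 0 to 1 for GEN against CAS and 0 to 1 for SPI against GEN. Relations over arrays that no longer passed without the 2 arrays farthest from the median were Csn1s1 with Csn3 (0.712), Csn1s1 with Glycam1 (0.550), Csn3 with Glycam1 (0.515), the luminal mean with Csn1s1 (0.714) and the basal mean with Csn1s1 (0.707), Csn2 (0.658) and Csn3 (0.488). Within diets Csn1s1 with Glycam1 (0.770), Csn3 with Glycam1 (0.658) and the basal mean with Csn3 (0.691) did not pass, nor by rank did the basal mean with Csn3 (0.685). Relations not past the threshold that changed sign were those of the actin ratio without 2 arrays (0.233, 0.313, 0.385 and 0.0205) and of the lymph node mean with Csn1s1 and Csn3 within diets (0.25 and 0.0090) and with Csn2 by rank (-0.10) and without 2 arrays (-0.14).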
